A study of Rattus norvegicus with 10 samples.

Results

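Potassium channel genes were taken as all genes whose single annotated symbol on a rat expression array starts with Kcn, and each gene was read from its probe set of highest mean. There were 75 such genes among 14217 named genes, measured by 126 probe sets. The samples were the prefrontal cortex (frontal areas Fr1 and Fr2) of 10 male Lewis rats, an inbred strain, each rat on 1 array. The rats weighed 200 to 250 g and received no treatment, and they came from 40 rats that had been through tests of sugar feeding, locomotion, acoustic startle and prepulse inhibition, with death 6 days after the last test. The labels also give a plus maze score for 7 of the 10 rats. The design has no treated and control groups, so the question is whether the level of a channel transcript followed a behaviour score from rat to rat.

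Potassium channels set the resting potential and bring a neuron back to rest after a spike. Voltage-gated channels (Kcna, Kcnb, Kcnc, Kcnd, Kcnh, Kcnq) open on depolarisation, and the silent subunits (Kcng, Kcns, Kcnv) form no channel alone but join Kcnb subunits. Auxiliary proteins alter the pore proteins: Kcnab genes encode cytoplasmic beta subunits, Kcnip genes encode calcium-binding proteins that join Kcnd channels, and Kcnmb genes encode beta subunits of the large-conductance calcium-activated channel. Inward rectifiers (Kcnj) pass current near rest and include channels opened by G proteins, and tandem-pore channels (Kcnk) carry leak current. In cortex these families shape spike width, firing rate and dendritic excitability.

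Values are log2 signals after GCRMA, a background correction and normalisation for Affymetrix arrays. A gene was tested where its probe set lay in the upper 50% of all 31042 probe sets that are not controls, a mean of at least 3.99. By this filter 39 of the 75 channel genes (52%) were retained, and 59.7% of all named genes were. Just below it were Kcng2 (mean 3.81), Kcna5 (3.84) and Kcnj14 (3.90), and just above it Kcnk3 (4.47), Kcns1 (4.62) and Kcna3 (4.64). The medians of the 10 arrays lay between 3.91 and 4.02. Of 12 named genes of cortical excitatory neurons 11 passed the filter, among them Slc17a7, while none of 6 named genes of choroid plexus and ependyma did. Striatal projection neuron genes were also present, with 12 of 14 past the filter, so these counts do not tell cortex from striatum. The mean level of the striatal list differed between rats more than that of the cortical neuron list. The cortical list ran from -0.08 to 0.10 log2 around its mean, and the striatal list from -0.53 in rat 3 to 1.26 in rat 7. The narrow cortical range is that of a mean, and its genes moved both ways. Of the 11, rat 7 was highest for 3 and lowest for 5. Tbr1 spanned 2.44-fold with its lowest value in rat 7, and Foxp2 2.17-fold with its highest there.

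The subfamilies differed in how many members were measurable. In the voltage-gated class 15 of 24 genes passed the filter: 5 of 6 Kcna genes, all 3 Kcnc genes, 2 of 3 Kcnd genes, 3 of 8 Kcnh genes and 2 of 3 Kcnq genes. Kcnb2 did not pass. Of the 7 silent subunit genes 5 passed, of the 13 auxiliary genes 7, of the 5 calcium- or sodium-activated channel genes 2 (Kcnma1 and Kcnt1), of the 15 inward rectifier genes 6 and of the 11 tandem-pore genes 4. None of 4 Kcne genes and none of 3 Kcnn genes passed. Kcnj10, the main glial inward rectifier, had a mean of 2.26 and stayed below the filter. A low signal of 1 probe set does not show that the transcript was absent.

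Promoters are printed for the 4 genes of smallest p against a striatal marker score, described further on: Kcnip2, Kcnab1 and Kcnd2 with positive slopes and Kcnj6 with a negative one. Of these, Kcnip2 alone passed the adjusted threshold. Kcnd2 encodes a pore subunit of the fast, inactivating somatodendritic current, Kcnip2 a calcium-binding partner of Kcnd channels, Kcnab1 a beta subunit of Kcna channels, and Kcnj6 a subunit of the G protein-gated inward rectifier. Each sequence is from RefSeq, build GRCr8, written from 5′ to 3′ on the gene's own strand, and covers 250 bases before the annotated start and 50 after it. Capitals mark matches, on both strands, to the GC box (GGGCGG), the CCAAT box (CCAAT), the core of the cAMP response element (TGACG) and the TATA box (TATAAA). The Kcnip2 window is chr1:254613849-254614148 (minus strand), that of Kcnab1 is chr2:151614301-151614600 (plus strand), that of Kcnd2 is chr4:50742235-50742534 (plus strand) and that of Kcnj6 is chr11:47778299-47778598 (minus strand).
Kcnip2: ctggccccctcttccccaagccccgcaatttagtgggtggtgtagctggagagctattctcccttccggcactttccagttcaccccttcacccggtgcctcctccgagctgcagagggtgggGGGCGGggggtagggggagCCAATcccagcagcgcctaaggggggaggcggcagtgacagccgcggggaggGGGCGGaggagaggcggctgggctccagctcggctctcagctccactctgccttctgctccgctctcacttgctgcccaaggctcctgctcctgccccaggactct
Kcnab1: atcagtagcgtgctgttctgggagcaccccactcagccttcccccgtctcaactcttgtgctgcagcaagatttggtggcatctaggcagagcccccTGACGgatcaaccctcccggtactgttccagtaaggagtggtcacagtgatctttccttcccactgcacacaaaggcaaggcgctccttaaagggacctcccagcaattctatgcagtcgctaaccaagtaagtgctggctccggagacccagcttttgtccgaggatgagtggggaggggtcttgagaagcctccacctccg
Kcnd2: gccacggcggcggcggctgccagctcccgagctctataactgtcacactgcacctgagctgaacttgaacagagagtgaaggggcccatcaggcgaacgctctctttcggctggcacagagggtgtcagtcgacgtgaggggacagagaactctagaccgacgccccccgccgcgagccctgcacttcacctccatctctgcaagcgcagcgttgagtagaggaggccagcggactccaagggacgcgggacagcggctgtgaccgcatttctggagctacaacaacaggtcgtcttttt
Kcnj6: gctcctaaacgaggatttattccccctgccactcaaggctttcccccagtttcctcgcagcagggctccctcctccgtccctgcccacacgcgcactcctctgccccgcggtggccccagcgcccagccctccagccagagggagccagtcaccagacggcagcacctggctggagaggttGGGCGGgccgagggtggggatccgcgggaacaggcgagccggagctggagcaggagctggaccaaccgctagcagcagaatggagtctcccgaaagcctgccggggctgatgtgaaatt

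The Kcnip2 window held 2 GC boxes and 1 CCAAT box, the Kcnab1 window 1 response element core, the Kcnj6 window 1 GC box, and the Kcnd2 window none of these 4 strings. Kcnip2, Kcnab1 and Kcnd2 shared none of the strings searched. Of 33469 RefSeq promoter windows of this length, 33.1% held a GC box, 37.5% a CCAAT box, 21.2% the response element core and 14.2% a TATA box. Of 58 windows of 52 Kcn genes, 56.9% held a GC box, 31% a CCAAT box, 22.4% the response element core and 3.45% a TATA box. The median GC content was 62% in the Kcn windows and 51.7% in all windows. It was 65.5% in 32 windows of genes past the filter and 59.7% in 26 windows of genes below it. A match is a string of letters and not a shown binding site.

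Most channel genes differed little between rats. The span of a gene, its highest over its lowest rat, had a median of 1.30-fold over the 39 genes, 1.32-fold over all named genes past the filter, read in the same way, and 1.35-fold over all 15521 probe sets past it. A span of at least 1.5-fold was found for 10 of the 39 genes (25.6%), where 30.4% of all probe sets had one. A span of at least 2-fold was found for 4 (10.3%), where 9.29% of all probe sets had one. By class the median span was 1.28-fold for voltage-gated genes, 1.51 for silent subunits, 1.31 for auxiliary genes, 1.31 for the calcium- or sodium-activated pair, 1.24 for inward rectifiers and 1.53 for tandem-pore genes. Narrow spans were those of Kcna3 (1.07-fold), Kcns2 (1.09), Kcnip1 (1.10) and Kcnj12 (1.11).

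**Figure D1:**
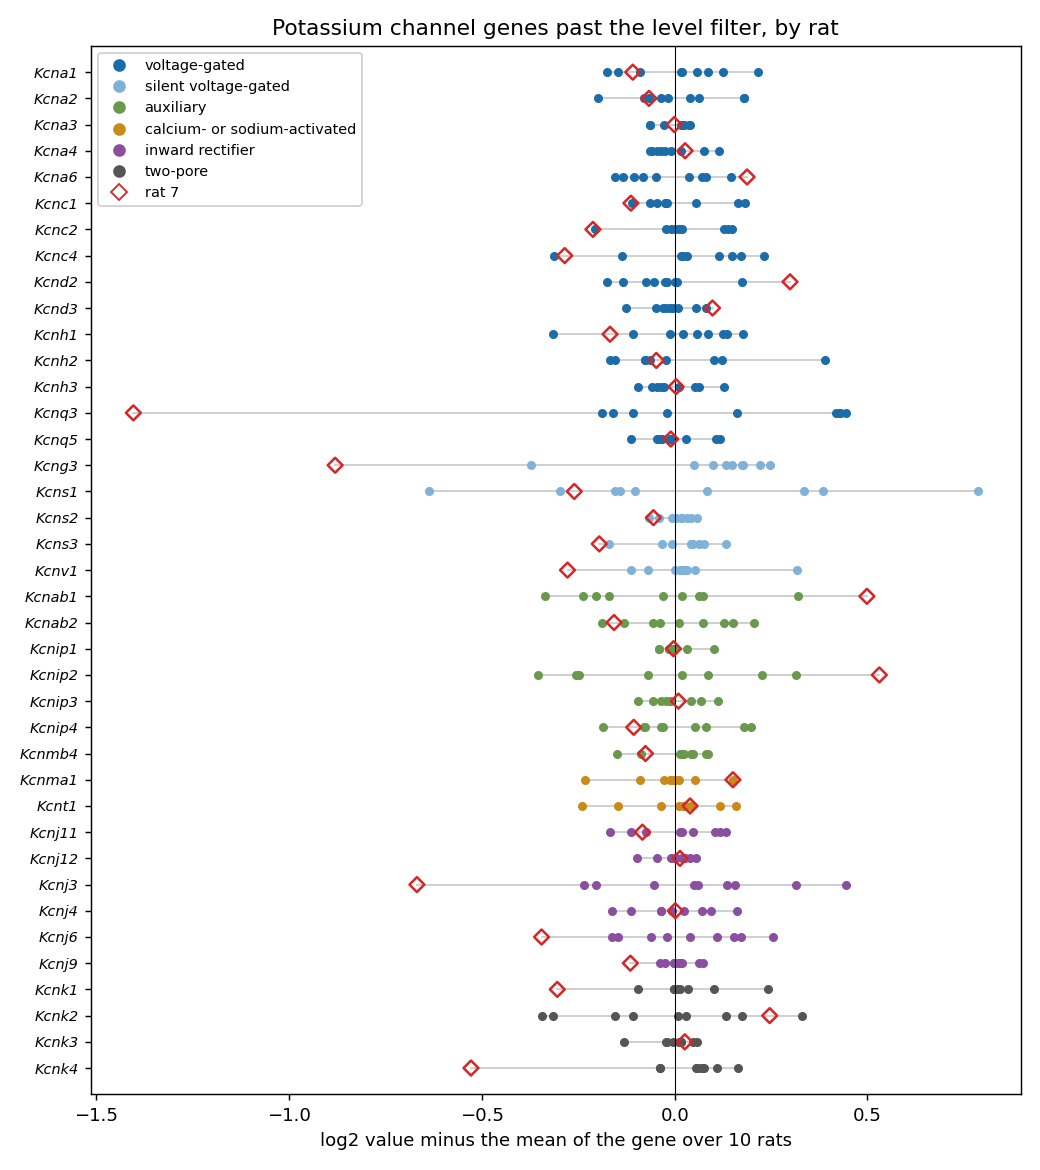
Each line is 1 of the 39 potassium channel genes past the filter, each point 1 of 10 rats, coloured by class, and the x axis gives the log2 value minus the gene's mean over the rats. Rat 7, drawn as a red diamond, is the lowest rat for 11 genes and the highest for 6, and is far below the others for Kcnq3, Kcng3, Kcnj3 and Kcnk4.

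The widest span belonged to Kcnq3, which encodes a subunit of the M-current that muscarinic receptors suppress. Its log2 level was 6.40 in rat 7, had a median of 7.88 and reached 8.25 in rat 6, a 3.60-fold span. The other 9 rats lay between 7.62 and 8.25, so rat 7 stood alone, and without it the span was 1.55-fold. Kcnq5, the other measurable gene of that subfamily, showed no such gap, with 11.02 in rat 7 and a range from 10.91 to 11.14.

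Among the silent subunits, Kcns1 had a lowest value of 3.98 in rat 1, a median of 4.50 and a highest value of 5.41 in rat 4, a 2.69-fold span. The next rats were at 4.33 and 5.01, and the span was 2.12-fold without rat 1, 2.03-fold without rat 4 and 2.69-fold without rat 7. Kcng3 was at 4.59 in rat 7, had a median of 5.61 and reached 5.72 in rat 2, a 2.19-fold span. Rat 1 was also low for Kcng3, at 5.09, and the remaining 8 rats lay between 5.52 and 5.72. Kcnv1, a subunit found mainly in brain, ran from 10.51 in rat 7 through a median of 10.81 to 11.11 in rat 2, a 1.51-fold span.

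Of the inward rectifiers, Kcnj3 and Kcnj6 encode subunits that join into 1 G protein-gated channel. Kcnj3 was at 7.79 in rat 7, had a median of 8.51 and reached 8.90 in rat 10, a 2.16-fold span that was 1.60-fold without rat 7. Kcnj6 was at 9.08 in rat 7, had a median of 9.44 and reached 9.68 in rat 2, a 1.52-fold span that was 1.34-fold without rat 7. Rat 7 was the lowest rat for both, and also for Kcnj9, a further subunit of these channels, at 6.57 against 6.65 to 6.76 in the other rats. A second probe set of Kcnj3 did not show this: rat 7 was at 6.47 there, within a range of 6.04 to 6.81. Nor did a second probe set of Kcnj6, where rat 7 was at 4.91 and the range was 4.67 to 4.94.

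Of the tandem-pore channels, Kcnk4, a channel opened by membrane stretch and fatty acids, was at 6.36 in rat 7, with a median of 6.95 and a highest value of 7.05 in rat 3. Its 1.62-fold span was 1.15-fold without rat 7, since the other 9 rats lay between 6.85 and 7.05. Kcnk2, a relative of Kcnk4, ran the other way: rat 5 was lowest at 8.96, the median was 9.33, and rats 4 and 7 were highest at 9.64 and 9.55. The Kcnk2 span was 1.60-fold with and without rat 7. Kcnk1, a widely expressed leak channel, ran from 8.94 in rat 7 through 9.25 to 9.49 in rat 2, a 1.46-fold span.

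Both auxiliary genes of wide span had their highest value in rat 7 on the probe set used. Kcnip2 ran from 8.21 in rat 1 through a median of 8.54 to 9.10 in rat 7, a 1.85-fold span that was 1.59-fold without rat 7. Kcnab1 ran from 10.51 in rat 5 through 10.84 to 11.34 in rat 7, a 1.78-fold span that was 1.58-fold without rat 7. Their second probe sets differed in this: rat 4 was highest on both, while rat 7 was at 5.77 for Kcnip2 (range 5.10 to 6.18) and at 7.41 for Kcnab1 (range 6.96 to 8.05). Kcnd2 also had its highest value in rat 7, with 10.98 in rat 1, a median of 11.14 and 11.46 in rat 7, a 1.39-fold span.

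Genes of narrower span on the probe set used included main axonal and fast-spiking channels. Kcna2 ran from 12.85 through 13.02 to 13.23 (1.30-fold) and Kcna1, its usual partner along axons, from 10.21 through 10.40 to 10.60 (1.31-fold). For both, rat 8 was lowest on the probe set used. A second probe set of Kcna2 was lowest in rat 1 (6.71), with rat 8 at 6.83, and spanned 1.46-fold. Kcnc1, a channel of fast-spiking interneurons, ran from 9.77 through 9.86 to 10.06 (1.23-fold). Kcnc2, of the same subfamily, spanned 1.28-fold on the probe set used, with rat 7 lowest at 10.73. Its other probe sets past the filter spanned 1.30-, 1.76-, 1.95- and 2.12-fold. Rat 7 was lowest on each of them, at 9.47, 8.00, 6.88 and 6.92. Kcnab2, the main beta subunit at axons, ran from 9.84 through 10.02 to 10.24 (1.31-fold) on the probe set used, but its 3 other probe sets past the filter spanned 2.26-, 2.76- and 3.40-fold. Kcnma1, the large-conductance calcium-activated channel, ran from 9.10 through 9.33 to 9.48 (1.30-fold) on the probe set used. Its other probe sets past the filter spanned 1.46- and 1.20-fold. Kcnh1 ran from 8.59 through 8.94 to 9.08 (1.41-fold), and Kcnip3, whose protein also binds DNA, from 8.36 through 8.45 to 8.57 (1.15-fold).

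Rat 7 gave the lowest value of 11 of the 39 genes (28.2%), where it was lowest for 13.1% of all probe sets past the filter. It gave the highest value of 6 genes (15.4%), where it was highest for 13.1%. Rat 2 was highest for 10 genes (25.6%), where it was highest for 20.6%, and rat 3 was lowest for 3 genes (7.69%), where it was lowest for 23.8%. Without rat 7, 7 genes spanned at least 1.5-fold and only Kcns1 at least 2-fold, and the median span was 1.275-fold, with 26.2% and 7.49% of probe sets past those folds. Rat 7 also had the highest startle score, 942.5, the highest sugar feeding score, 2.15, the highest striatal list and, at 0.46, the highest myelin list.

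A measure of RNA quality was also highest in rat 7, and the channel genes were set against it. On these arrays the control transcripts of beta-actin, GAPDH and hexokinase are probed at both ends, and the mean log2 difference of the 3′ probe set minus the 5′ probe set was 1.37 in rat 7, where the other 9 rats lay between 1.02 and 1.19. Regression of each gene on this difference, by limma, gave 0 of 39 channel genes at a Benjamini-Hochberg adjusted p under 0.05, where 0.303% of all probe sets passed. At an unadjusted p under 0.05 there were 5, all of negative slope, which is 12.8% of the 39, where 9.2% of all probe sets passed and 7.48% did so with a negative slope. Slopes here and below are in log2 units per SD of the predictor over the rats. Kcnq3 had a slope of -0.49 ± 0.09 (SE, n = 10; limma adjusted p = 0.0524), and -0.16 ± 0.08 without rat 7. The slope of Kcnj3 was -0.23 ± 0.07, that of Kcng3 -0.26 ± 0.08 and that of Kcnk4 -0.15 ± 0.04. Without rat 7 these became -0.08, -0.02 and 0.00. Kcnab2 was the fifth, at -0.09 ± 0.04. The part of RNA quality in the low values of rat 7 was not tested. This single rat carries the relation for Kcng3 and Kcnk4, and part of it for Kcnq3 and Kcnj3.

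**Figure D2:**
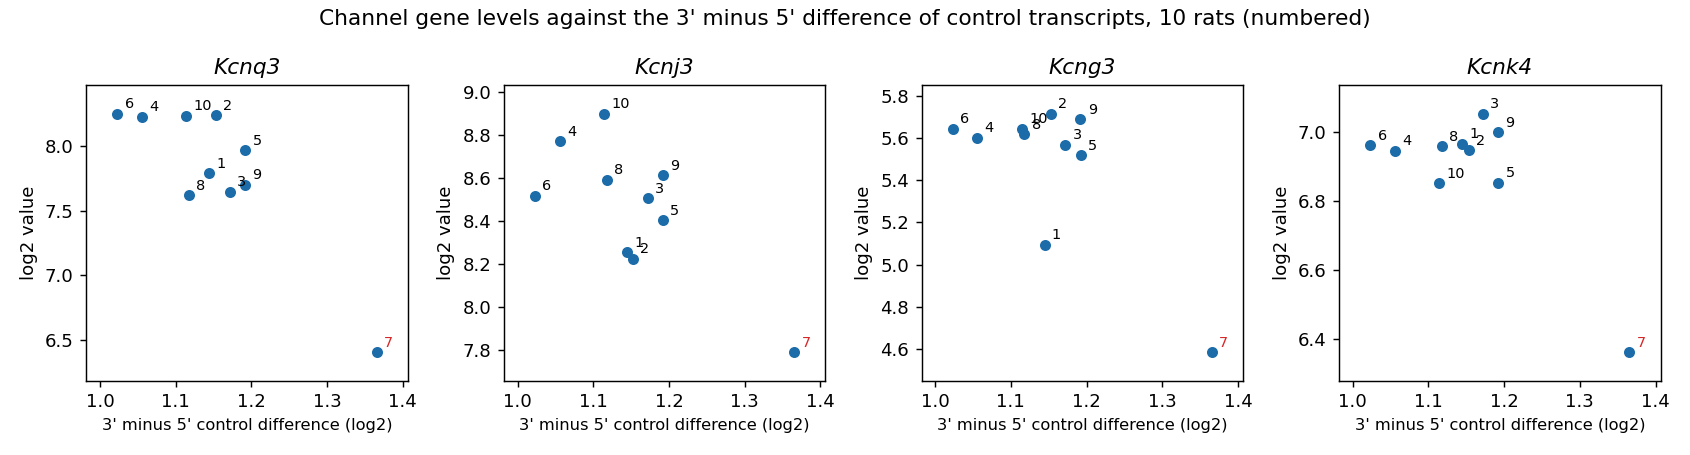
Each panel plots the log2 value of 1 channel gene (y axis) against the mean 3′ minus 5′ difference of the control transcripts (x axis, log2), with 1 numbered point per rat. Rat 7, at 1.37, has the lowest value of Kcnq3, Kcnj3, Kcng3 and Kcnk4, and the other 9 rats, between 1.02 and 1.19, lie well above it.

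A further axis of difference between the rats was the level of striatal projection neuron genes. The striatal score of a rat is the mean deviation of 12 such genes, Drd1, Penk and Pde10a among them, and none of them is a channel gene. Kcnip2 passed the threshold against it, with a slope of 0.27 ± 0.04 (SE, n = 10; limma p = 1.23e-05, adjusted p = 0.00563), where 1.8% of all probe sets passed. Its 3 highest rats, 7, 4 and 10 (9.10, 8.88 and 8.79), were the 3 rats of highest striatal score (1.26, 0.78 and 0.45). Its 4 lowest rats, 1, 2, 3 and 9 (8.21 to 8.32), were the 4 of lowest score (-0.53 to -0.48). Without rat 7 the slope was 0.21 and the limma adjusted p 0.0526, and over all alternatives tried the adjusted p lay between 0.00416 and 0.698. A second Kcnip2 probe set had a slope of 0.17 (limma unadjusted p = 0.0439).

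At an unadjusted p under 0.05, 8 of the 39 genes (20.5%) had a slope on the striatal score, where 14.7% of all probe sets did. Of these, 5 were positive and 3 negative, where 6.28% of probe sets were positive and 8.42% negative. Beside Kcnip2 the positive slopes were those of Kcnab1 at 0.21 ± 0.05 (limma adjusted p = 0.0524), Kcnk2 at 0.17 ± 0.05, Kcnd2 at 0.12 ± 0.03 and Kcna6 at 0.08 ± 0.03. The negative slopes were those of Kcnj6 at -0.16 ± 0.04 (limma adjusted p = 0.0570), Kcnk4 at -0.15 ± 0.04 and Kcnk1 at -0.10 ± 0.03. None of these 7 passed after adjustment. Without rat 7 the slopes were 0.14 for Kcnab1, 0.16 for Kcnk2, 0.07 for Kcnd2, 0.05 for Kcna6, -0.10 for Kcnj6, -0.03 for Kcnk4 and -0.04 for Kcnk1. Quantile normalisation brought Kcnab1 (limma adjusted p = 0.0283) and Kcnj6 (0.0355) past the threshold too.

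**Figure D3:**
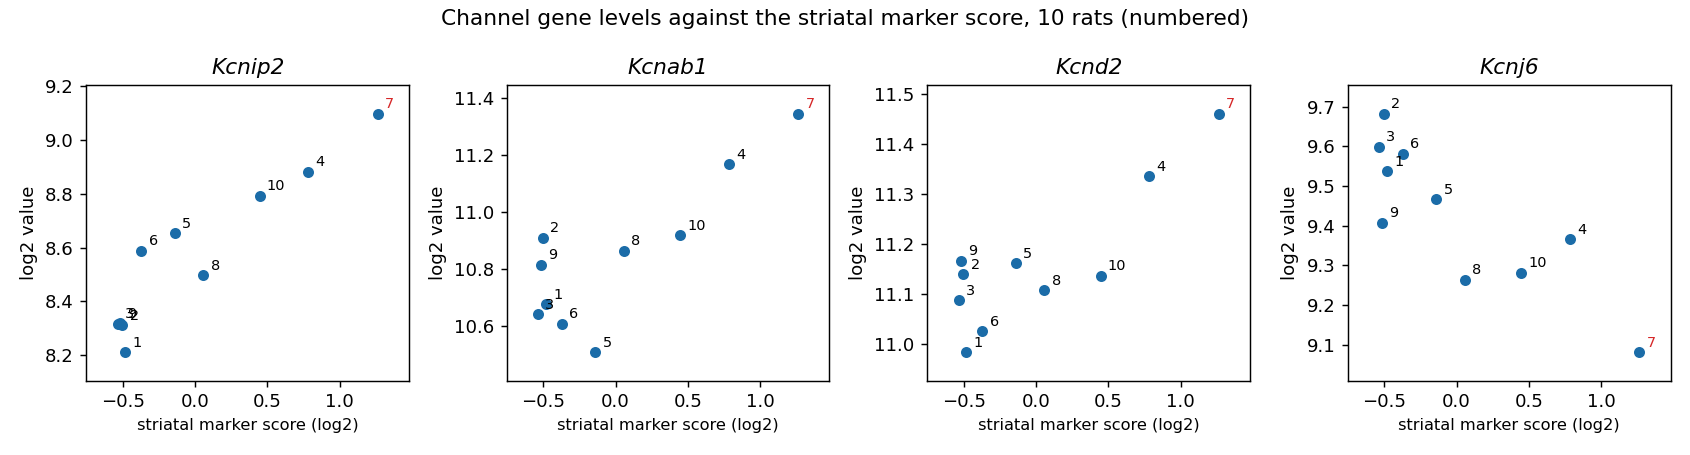
Each panel plots the log2 value of 1 channel gene (y axis) against the striatal marker score (x axis, log2), with 1 numbered point per rat. Kcnip2, Kcnab1 and Kcnd2 are highest in rats 7 and 4, which have the highest scores (1.26 and 0.78), and Kcnj6 is lowest in rat 7.

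Rat 7 had the highest value of 11 of the 12 striatal genes, all but Pdyn. The dopamine receptor genes Drd1 and Drd2 ran from 5.79 to 9.60 and from 4.05 to 7.57 over the rats. The part of striatal RNA in the level of Kcnip2 was not tested. In bulk tissue more cells of a type and more RNA per cell cannot be told apart. Of 21 further probe sets of 13 channel genes, 14 shared the sign of the first on the striatal score. Some genes gave several of the 21, so these are not independent. For Kcnd2 the second probe set had a slope of 0.08 (limma unadjusted p = 0.0159), and for Kcnab1 it had 0.14 (unadjusted p = 0.0991).

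Rat 7 also had the highest value of 13 of 15 myelin and oligodendrocyte genes. Against their score, Kcnip2 again passed alone, with a slope of 0.25 ± 0.05 (SE, n = 10; limma adjusted p = 0.0272), where 2% of all probe sets passed. The call was lost without rat 2, 4, 7 or 10 (limma adjusted p = 0.0681, 0.0768, 0.111 and 0.0581), and over all alternatives tried the adjusted p lay between 0.0203 and 0.851. At an unadjusted p under 0.05 there were 5 genes (12.8%), where 15.9% of probe sets passed. The other 4 were Kcnk2 (0.14 ± 0.06), Kcnj6 (-0.13 ± 0.04), Kcnk4 (-0.12 ± 0.05) and Kcnk1 (-0.10 ± 0.03), each of which was also among the striatal 8. With both scores in 1 model the Kcnip2 slope was 0.20 on the striatal score (limma adjusted p = 0.698) and 0.09 on the myelin score (adjusted p = 0.851), so these 10 rats do not separate the 2 axes.

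No channel gene passed against the meningeal score (limma adjusted count 0, unadjusted 0, where 0.142% and 3.67% of probe sets passed). The gene of smallest p was Kcnip2, at -0.13 ± 0.08. Against the immediate-early score, a readout of recent neuronal activity, the counts were again 0 and 0, where 0.0322% and 2.2% of probe sets passed. There Kcna2 had -0.06 ± 0.04 and Kcnh2, which encodes a slowly deactivating channel also known from heart muscle, 0.05 ± 0.05. The Kcnh2 slope turned to -0.01 without rat 8, the rat of highest Kcnh2 level.

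Behaviour scores were regressed in the same way. The units of the scores are not given in the labels. Startle ran from 362.5 in rat 2 to 942.5 in rat 7, locomotion from 9420 in rat 10 to 17987 in rat 4, sugar feeding from 0 in rat 5 to 2.15 in rat 7, prepulse inhibition from 6.80 in rat 1 to 42.5 in rat 4, and the plus maze score from 0 to 60.3 in rat 5. No channel gene passed a limma adjusted p under 0.05 against any of the 5 scores, and neither did any other probe set, so percent called was 0 for each. At an unadjusted p under 0.05 there was 1 channel gene for startle, 1 for prepulse inhibition and none for the other 3.

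**Figure D4:**
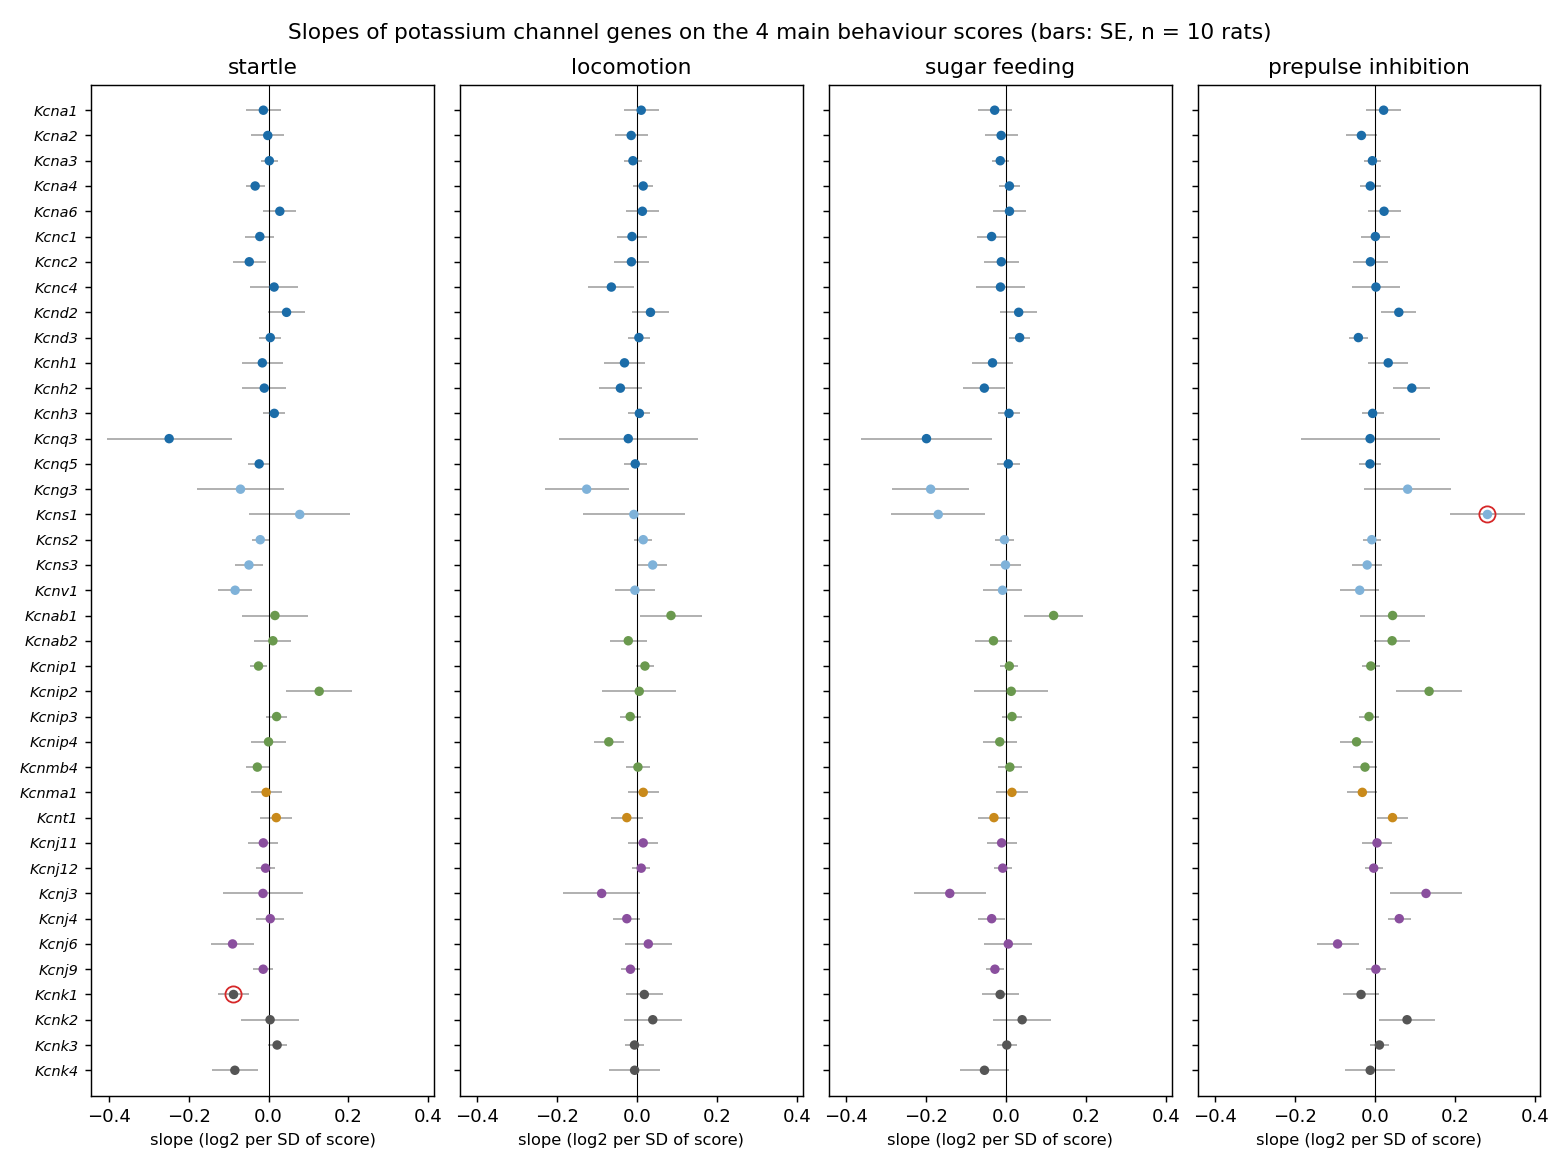
Each point is the slope of 1 channel gene (log2 per SD of the score) with its SE as a bar, for startle, locomotion, sugar feeding and prepulse inhibition in 10 rats, coloured by class from voltage-gated (top) to tandem-pore (bottom). Red rings mark the 2 slopes of unadjusted p under 0.05, Kcnk1 on startle (-0.09) and Kcns1 on prepulse inhibition (0.28), and wide bars belong to Kcnq3, Kcng3, Kcns1 and Kcnj3.

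For startle, 16 slopes were positive and 23 negative, where 37.7% of all probe sets had a positive slope. The 1 gene at an unadjusted p under 0.05 compares with 5.59% of probe sets. That gene was Kcnk1, with -0.09 ± 0.04 (SE, n = 10; limma p = 0.0429, adjusted p = 0.808). Rat 2, of lowest startle, had the highest Kcnk1 value (9.49), and rat 7, of highest startle, the lowest (8.94), while 5 of the other 8 rats lay at 9.25 or 9.26. The slope was -0.05 without rat 7 (limma unadjusted p = 0.179). The negative slopes of next smallest p were those of Kcnv1 (-0.08 ± 0.04) and Kcnj6 (-0.09 ± 0.05). The positive slopes of smallest p were Kcnip2 (0.13 ± 0.08), Kcnd2 (0.05 ± 0.05) and Kcnk3 (0.02 ± 0.02), and without rat 7 those of Kcnip2 and Kcnd2 were 0.05 and -0.00. With the second probe set the slope of Kcnip2 was -0.06 and that of Kcnj6 0.01, each of the opposite sign. Kcnq3 had a large slope of -0.25 with an SE of 0.16, which was -0.04 without rat 7.

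By class, 5 of 6 inward rectifiers and 4 of 5 silent subunits had negative startle slopes, and 5 of 7 auxiliary genes positive ones. Their median slopes were -0.01, -0.05 and 0.01, where the median SE of all probe sets was 0.04. The genes share the same rats, so their signs are not independent. The median slope of the 39 genes was -0.01 and that of all probe sets -0.02.

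For locomotion, 18 slopes were positive and 21 negative, where 65.4% of all probe sets had a positive slope. The unadjusted count of 0 compares with 2.93% of probe sets. Kcnip4, a calcium-binding partner of Kcnd channels, had the smallest p at -0.07 ± 0.04 (limma p = 0.0823, adjusted p = 1.00). Kcng3 was at -0.13 ± 0.10 and Kcnc4 at -0.06 ± 0.06. The positive slopes of smallest p were Kcnab1 at 0.08 ± 0.08, Kcns3 at 0.04 ± 0.04 and Kcnip1 at 0.02 ± 0.02. Rat 4, the most active rat, had the lowest Kcnip4 value (10.43), and without it the slope was -0.04.

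For sugar feeding, 15 slopes were positive and 24 negative, where 58.4% of probe sets had a positive slope and 2.13% passed at an unadjusted p under 0.05. All 5 silent subunits and 5 of 6 inward rectifiers had negative slopes. Kcng3 was at -0.19 ± 0.10 (limma p = 0.0757, adjusted p = 1.00), Kcnj3 at -0.14 ± 0.09 and Kcns1 at -0.17 ± 0.12. Kcnab1 was at 0.12 ± 0.07, Kcnd3 at 0.03 ± 0.03 and Kcnd2 at 0.03 ± 0.05. Without rat 7, the rat that ate most, the slopes were -0.06 for Kcng3, -0.04 for Kcnj3, 0.05 for Kcnab1 and -0.02 for Kcnd2.

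For prepulse inhibition, 19 slopes were positive and 20 negative, where 41.3% of probe sets had a positive slope. The 1 gene at an unadjusted p under 0.05 compares with 7.41% of probe sets. Kcns1, a silent subunit that joins Kcnb channels, had a slope of 0.28 ± 0.09 (SE, n = 10; limma p = 0.0127, adjusted p = 0.630). Rat 1 had the lowest score and the lowest Kcns1 value, 3.98, and rat 4 the highest of both, at 5.41. The slope lay between 0.19 and 0.33 when each rat was left out in turn, with its largest unadjusted p, 0.0819, without rat 1. Rat 1's Kcns1 value is at the level of the filter. Kcnj4 had 0.06 ± 0.03 and Kcnh2 0.09 ± 0.05, and the negative slopes of smallest p were Kcnj6 (-0.09 ± 0.05), Kcnd3 (-0.04 ± 0.02) and Kcnip4 (-0.05 ± 0.04). The second probe set of Kcnab1 had a slope of 0.20 (limma unadjusted p = 0.0130), where the first had 0.04.

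For the plus maze score, known for 7 rats, 21 slopes were positive and 18 negative, where 39.2% of probe sets had a positive slope and 6.95% passed at an unadjusted p under 0.05. Kcna1 was at 0.10 ± 0.05 and Kcnc1 at 0.07 ± 0.05, and Kcnk2 at -0.16 ± 0.07 and Kcnab1 at -0.17 ± 0.09. Of the 7 auxiliary genes 6 had negative slopes, with a class median of -0.04 where the median SE of all probe sets was 0.05. Rat 5 alone had a score of 60.3, the next being 20.2, and without it the slopes were 0.03 for Kcna1, -0.02 for Kcnc1, 0.03 for Kcnk2 and -0.02 for Kcnab1.

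Of the well-known cortical channels, Kcna2, Kcnma1 and Kcnh1 had slopes smaller than their errors on startle, locomotion, sugar feeding and prepulse inhibition. Others did not all do so: Kcnk1 on startle and Kcnj3 on sugar feeding, given above, had slopes larger than their errors. Kcna2 had -0.00 ± 0.04 on startle, -0.02 ± 0.04 on locomotion, -0.01 ± 0.04 on sugar feeding and -0.03 ± 0.04 on prepulse inhibition. Kcnma1 had -0.01 ± 0.04, 0.01 ± 0.04, 0.01 ± 0.04 and -0.03 ± 0.04 on the same scores in that order, and Kcnh1 -0.02 ± 0.05, -0.03 ± 0.05, -0.03 ± 0.05 and 0.03 ± 0.05. Across 21 further probe sets of 13 genes, the sign of the first probe set was shared by 13 on startle, 12 on locomotion, 13 on sugar feeding, 17 on prepulse inhibition and 9 on the plus maze score.

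Proteins outside the Kcn symbols that bind or anchor potassium channels, such as Dpp6, Amigo1, the scaffolds of the Dlg family and Ank3, were read from a list of 25 genes, of which 19 passed the filter. None passed a limma adjusted p under 0.05 against the 5 behaviour scores or the 4 marker scores. At an unadjusted p under 0.05 there were none for startle, locomotion, prepulse inhibition, the striatal score or the immediate-early score. Of all probe sets 5.59%, 2.93%, 7.41%, 14.7% and 2.2% passed there. For sugar feeding, the plus maze, the myelin score and the meningeal score there was 1 of the 19 each (5.26%). Of all probe sets 2.13%, 6.95%, 15.9% and 3.67% passed there. Akap5, an anchor of signalling enzymes near M-current channels, had 0.09 ± 0.04 on sugar feeding (limma adjusted p = 1.00). Vapb, a protein of contact sites between endoplasmic reticulum and plasma membrane, had -0.11 ± 0.03 on the plus maze score (limma adjusted p = 0.652). Cntnap2, which holds Kcna channels beside the node of Ranvier, had -0.15 ± 0.04 on the myelin score (limma adjusted p = 0.0832) and 0.11 ± 0.05 on the meningeal score (adjusted p = 0.999).

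The 36 genes below the filter were tested only in the alternative with no filter. Wide spans among them were those of Kcna5 (2.28-fold, highest at 4.75 in rat 7), Kcng2 (2.18-fold) and Kcne4 (1.71-fold). Kcnj13, a channel of choroid plexus and other epithelia, was at 3.23 in rat 5 and between 2.67 and 2.75 in the other 9 rats.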

How the data were processed

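Prefrontal cortex RNA of 10 rats was measured on Affymetrix arrays, 1 array per rat. The deposited table holds log2 values of 31099 probe sets, normalised by the authors with GCRMA in R 2.6.2, per the submitters' processing notes. Here 57 control probe sets were removed and genes were named through the platform annotation (20826 probe sets with 1 symbol, 436 with several, 9780 with none). All 75 Kcn symbols matched RefSeq, 52 with a promoter window. In R 4.3.3, limma 3.58.1 regressed each of 15521 probe sets on each score scaled to SD 1, with Benjamini-Hochberg adjustment over all of them; the code was first tested on simulated data. The number of arrays limits the precision. Marker scores are means of log2 deviations of listed genes past the filter. Values were given in full for the 10 genes of widest span, the 3 of smallest p in each direction per main score (2 for the plus maze and marker scores), and a panel of well-known channels. The genes and lists were chosen with earlier results of these data known. Alternatives were normalisation, filter, probe set, covariates, ranks, variance model and leaving out each rat.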

Additional observations from a re-analysis of the deposited data

Results flagged for a closer look

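Values far from the others were sought among 52 items. These were the channel genes past the filter, those below it that spanned at least 1.5-fold (Kcna5, Kcng2 and Kcne4), the behaviour and marker scores, and the 3′ minus 5′ difference. An item was marked where the gap of the highest or lowest rat to the next, over the range, exceeded Dixon's critical value. Chance marks about 1 in 20 such sets, a rate that does not hold for genes chosen by their span. Of the 52, 7 were marked, 3 of them in rat 7.

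Kcnq3 was at 6.405 in rat 7, with the next rat at 7.62. Kcnk4 was at 6.362 in rat 7, with the next at 6.85. The 3′ minus 5′ difference of the control transcripts was 1.365 in rat 7, with the next at 1.192. Kcnh2 was highest in rat 8, at 5.689, with the next at 5.42. Kcnip1 was highest in rat 2, at 6.849, with the next at 6.78. Kcnk3 was lowest in rat 2, at 4.344, with the next at 4.45. The plus maze score was highest in rat 5, at 60.29, with the next at 20.2.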

How the results depend on the processing

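No paired analysis was possible because the 10 rats form 1 group with 1 array each. Of 845 alternative values of 44 named slopes, 815 kept their direction and side of the threshold, 16 reversed, 6 passed it only under the alternative and 8 no longer passed it. Causes were not tested. Only the Kcnip2 slopes on the striatal and myelin scores passed in the main fit, and all 8 losses were theirs. The other named slopes had not passed, so that most of them stayed on their side of the threshold is no measure of stability. The adjusted counts of 0 for the 5 behaviour scores were 0 under every alternative run. Alternatives with the 3′ minus 5′, myelin or striatal covariate on a marker score were chosen after seeing the data.

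Unadjusted counts moved as follows. Startle, 1 gene, gave 0 with arrays centred, quantile normalisation or the 3′ minus 5′, spike-in or striatal covariate, 2 with no filter or ranks, 4 with gene means, and 0 to 3 leaving out a rat. Locomotion, 0, gave 1 with quantile normalisation or the 4 scores in 1 model, and 0 to 2 leaving out a rat. Sugar feeding, 0, gave 1 with no filter or ranks, 2 with the 4 scores, and 0 to 4 leaving out a rat. Prepulse inhibition, 1, gave 2 with gene means, quantile normalisation, unmoderated regression or the second probe set, 3 with no filter, 4 with the 4 scores, 0 in the upper 25% of probe sets, and 0 to 4 leaving out a rat. The plus maze, 0, gave 1 with the 3′ minus 5′ covariate, the upper 25% or the second probe set, 2 with quantile normalisation or the striatal covariate, 3 with no filter, and 0 to 3 leaving out a rat. The meningeal count, 0, gave 1 with no filter.

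The adjusted striatal count, 1, gave 0 with the myelin covariate, 3 with quantile normalisation, and 0 to 2 leaving out a rat, with 0 only without rat 7; the unadjusted count, 8, gave 3 with the myelin covariate. The adjusted myelin count, 1, gave 2 with the 3′ minus 5′ covariate, 0 with no filter or the striatal covariate, and 0 to 1 leaving out a rat. Its unadjusted count, 5, gave 0 with the striatal covariate and lay between 2 (without rat 7) and 7 leaving out a rat. The median span of 0.38 log2 (jackknife SE 0.03) was 0.22 with no filter and 0.55 over second probe sets of 13 genes.

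Reversed slopes on startle were Kcnip2 at -0.06283 and Kcnj6 at 0.01438 with the second probe set. Leaving out a rat, Kcnd2 lay between -0.001459 (without rat 7) and 0.06981, and Kcnk3 between -0.004034 (without rat 2) and 0.02978. On locomotion, Kcnab1 was -0.09044 with the 4 scores, and Kcnip1 -0.001552 with quantile normalisation and -0.008679 with the spike-in covariate. On sugar feeding, Kcnab1 was -0.06859 and Kcnd2 -0.01304 with the second probe set, Kcnd3 -0.01624 with gene means and Kcnj3 0.06604 with the 4 scores. Leaving out a rat, Kcnd2 lay between -0.01733 (without rat 7) and 0.05933. On the plus maze, Kcnab1 was 0.1228 with the second probe set. Leaving out a rat, Kcnc1 lay between -0.02425 (without rat 5) and 0.1041, and Kcnk2 between -0.1893 and 0.02801 (without rat 5). On the immediate-early score, Kcnh2 lay between -0.005356 (without rat 8) and 0.104.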

Other observations

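Genes with several probe sets did not always give 1 pattern over the rats. The second probe set of Kcnab1 spanned 2.12-fold, from 6.96 to 8.05, where the first spanned 1.78-fold, and their slopes on the sugar feeding score were -0.07 ± 0.09 and 0.12 ± 0.07 (SE, n = 10). The second probe set of Kcnd2 spanned 1.24-fold, from 10.47 to 10.78, where the first spanned 1.39-fold.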
